A study of Mus musculus with 21 samples.

Results

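Accessible chromatin was examined here at 34 genes of fatty acid uptake, storage and oxidation in muscle fibre nuclei of mouse quadriceps. A region belonged to this gene set where the nearest transcription start site of any protein-coding gene, by the GENCODE M39 annotation of GRCm39, was that of a member. Of 41411 regions that differed from sedentary muscle in at least 1 contrast, 128 were nearest to a member, and they fell to 28 of the 34 genes. No listed region was nearest to Dgat1, Plin5, Pnpla2, Etfdh, Fabp4 or Fasn. The members with a region held a median of 3 regions each, against 2 for the 11949 of 21738 protein-coding genes that had any.

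Accessibility was measured by ATAC-seq, in which a transposase cuts open DNA, in nuclei that were sorted with an antibody against PCM1, a protein at the nuclear surface of muscle fibres. All mice were wildtype, and by the methods of the study adult males of the C57/Bl6 strain. The 21 samples made up 7 groups of 3. Sedentary mice had done no exercise, untrained mice were taken 0, 6 or 72 h after a run to exhaustion, and trained mice were taken at the same times after 12 weeks of voluntary wheel running and the same kind of run. Trained mice at rest were not among the groups, so what training did and what the run did cannot be told apart in the trained groups.

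The values are group means. Each listed region had a concentration (mean normalised reads of a group, as log2) for sedentary and for exercised muscle, and a difference is exercised minus sedentary, on the log2 scale. Values of single samples and their depth were not given, so no spread between replicates can be set beside a value. A region called lost or gained had passed a false discovery rate (FDR) of 0.05 in the comparison made by the authors, over 63953 regions per contrast. A region that was not listed in a contrast has no value there and may have differed by less than that test could find. In a pool of nuclei, fewer nuclei with an open region and less opening per nucleus cannot be told apart. Promoters were listed for 8 of 10 marker genes of muscle fibres, with sedentary concentrations from 7.67 to 15.88, and for 0 of 6 endothelial and 0 of 5 adipocyte markers. They were listed for 1 of 5 fibro-adipogenic, 1 of 5 immune, 1 of 4 satellite cell and 1 of 4 smooth muscle markers, at concentrations from 8.24 to 9.14. Regions of any kind were listed for 9 of 10 muscle fibre, 5 of 6 endothelial and 2 of 5 adipocyte markers. The same held for 5 of 5 fibro-adipogenic, 3 of 5 immune, 2 of 4 satellite cell and 4 of 4 smooth muscle markers. A promoter that was not listed may still be open, so these counts do not measure the purity of the nuclei.

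Long-chain fatty acids reach muscle bound to albumin or are freed from lipoproteins at the capillary wall, cross the membrane with the help of carrier proteins, and are trapped as acyl-CoA. The acyl group is then stored as triglyceride in lipid droplets or handed to carnitine, carried into the mitochondrion and shortened step by step by beta-oxidation. Malonyl-CoA, made by acetyl-CoA carboxylases, holds back the carnitine step, and nuclear receptors of the PPAR and ERR families are known regulators of many of these genes.

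The regions that carry the results below are shown first, as the forward strand of GRCm39 read 5′ to 3′. The first 4 gained accessibility and lie outside promoters of the canonical transcripts, and capitals mark the letters TGANTCA, which AP-1 factors (Fos and Jun) are known to bind. The Hadha sequence comes from the end of intron 12, just before coding exon 13, the Acsl1 sequence from 40814 bp upstream of the gene, the Scd1 sequence from beyond the 3′ end of the gene and the Lpl sequence from its last intron.
Hadha, chr5:30331889-30332095: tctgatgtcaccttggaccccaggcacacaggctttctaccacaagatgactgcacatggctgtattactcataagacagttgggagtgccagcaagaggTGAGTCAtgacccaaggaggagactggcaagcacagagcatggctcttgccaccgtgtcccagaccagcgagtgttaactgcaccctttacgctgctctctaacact
Acsl1, chr8:46882946-46883145: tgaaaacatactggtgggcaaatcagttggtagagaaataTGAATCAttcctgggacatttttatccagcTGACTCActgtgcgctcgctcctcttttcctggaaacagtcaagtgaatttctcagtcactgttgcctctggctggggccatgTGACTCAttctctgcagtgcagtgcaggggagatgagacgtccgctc
Scd1, chr19:44382477-44382688: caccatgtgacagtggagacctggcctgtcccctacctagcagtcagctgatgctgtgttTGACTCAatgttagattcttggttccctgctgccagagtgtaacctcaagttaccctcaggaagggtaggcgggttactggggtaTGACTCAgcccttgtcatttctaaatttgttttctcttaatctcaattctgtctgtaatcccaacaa
Lpl, chr8:69356703-69356906: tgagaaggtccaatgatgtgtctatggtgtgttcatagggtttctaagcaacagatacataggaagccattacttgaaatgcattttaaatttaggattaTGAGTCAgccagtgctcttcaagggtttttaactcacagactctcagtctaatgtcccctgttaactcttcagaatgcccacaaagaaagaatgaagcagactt
The next sequence is the middle of the gained Ucp3 region, with the ERR element AAGGTCA in capitals.
Ucp3, chr7:100131379-100131585: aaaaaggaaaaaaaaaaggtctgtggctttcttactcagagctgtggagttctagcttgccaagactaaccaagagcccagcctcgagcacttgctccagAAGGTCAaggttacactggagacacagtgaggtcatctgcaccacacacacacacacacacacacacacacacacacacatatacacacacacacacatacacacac
The sequences below were lost. The 296 bases upstream of Dgat2 are the member region with the deepest loss. The 239 bases at Cd36 lie within the annotated gene, 36020 bp upstream of its canonical start. They had the deepest loss at an uptake gene in untrained muscle. The 246 bases in intron 3 of Slc25a20 were listed in all 5 contrasts. None of these 3 regions held a motif that was searched. In the Dgat2 intron the capitals mark a DR1, the letters AGGNCA repeated after 1 base, which PPAR receptors are known to bind, and its end overlaps an ERR element. In the Lpin1 flank they mark TGANTCA. Upstream of the canonical Cpt1b start they mark the pattern searched for MEF2, CTA and TAG with any 4 bases between them.
Dgat2, chr7:98836682-98836977: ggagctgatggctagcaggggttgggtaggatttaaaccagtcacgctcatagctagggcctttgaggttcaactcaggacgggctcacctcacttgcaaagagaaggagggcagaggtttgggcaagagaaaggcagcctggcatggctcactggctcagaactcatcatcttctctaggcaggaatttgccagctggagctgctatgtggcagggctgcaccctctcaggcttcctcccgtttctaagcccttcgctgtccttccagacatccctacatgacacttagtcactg
Cd36, chr5:18090916-18091154: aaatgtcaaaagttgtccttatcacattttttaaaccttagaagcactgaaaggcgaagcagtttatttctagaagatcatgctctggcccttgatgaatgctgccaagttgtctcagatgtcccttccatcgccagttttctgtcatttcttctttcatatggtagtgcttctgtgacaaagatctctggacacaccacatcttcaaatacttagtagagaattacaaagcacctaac
Slc25a20, chr9:108550038-108550283: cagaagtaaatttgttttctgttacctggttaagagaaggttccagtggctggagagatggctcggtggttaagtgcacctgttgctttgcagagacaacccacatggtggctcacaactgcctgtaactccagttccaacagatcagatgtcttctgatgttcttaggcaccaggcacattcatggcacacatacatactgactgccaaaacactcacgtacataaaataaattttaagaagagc
Dgat2, chr7:98810831-98810963: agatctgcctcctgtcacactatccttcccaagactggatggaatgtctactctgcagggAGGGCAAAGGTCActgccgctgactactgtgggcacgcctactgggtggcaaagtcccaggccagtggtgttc
Lpin1, chr12:16563230-16563356: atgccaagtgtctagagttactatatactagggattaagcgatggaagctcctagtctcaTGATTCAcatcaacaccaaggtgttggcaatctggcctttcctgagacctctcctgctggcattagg
Cpt1b, chr15:89310262-89310311: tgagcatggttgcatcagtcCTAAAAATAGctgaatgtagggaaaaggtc

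Losses made up most of the changes at the members in every contrast. Immediately after the run, 74 member regions were lost and 8 gained in untrained muscle, and 84 were lost and 18 gained in trained muscle. At 6 h the counts were 21 lost and 7 gained in untrained muscle, and 25 lost and 4 gained in trained muscle. At 72 h, 9 regions were lost and 0 gained in trained muscle, and the table for untrained muscle at 72 h listed 0 regions of any gene. Under a stricter FDR of 0.01, the lost member regions were 45 and 50 at 0 h and 8 and 5 at 6 h in untrained and trained muscle, and at 72 h 1, at Hadhb. Over all 63953 regions, the losses were 27.9% in untrained and 46.3% in trained muscle at 0 h, 6.6% and 16.4% at 6 h, and 4.06% in trained muscle at 72 h. The gains were 5.12% and 6.98% at 0 h, 6.47% and 1.97% at 6 h, and 0.0422% at 72 h. How many of the tested regions belonged to members is not known, so the share of members is given over listed regions. Of the 128 member regions, 57.8% were lost in untrained muscle at 0 h, against 43.1% of the 41411 listed regions, and 65.6% in trained muscle, against 71.5%. At 6 h the shares were 16.4% against 10.2% in untrained and 19.5% against 25.4% in trained muscle, and at 72 h 7.03% against 6.27%.

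Counted by gene, 23 of 34 members had a lost region in untrained muscle at 0 h, where 31.9% of all protein-coding genes had one, and 26 in trained muscle, where 49.7% did. At 6 h, 11 members had a loss in untrained muscle (12.1% of all genes) and 11 in trained muscle (22.1% of all genes), and at 72 h 8 members did in trained muscle (8.32% of all genes). A gain was found at 4 members in untrained muscle at 0 h (8.87% of all genes), at 10 in trained muscle (11.8%), at 4 in untrained muscle at 6 h (12.1%) and at 3 in trained muscle (4.82%). At 72 h a gain was found at 0 members, with 0.124% of all genes having one. Of all the genes, 55% had any listed region, against 82.4% of the members, so a share of members above the share of all genes is not particular to a contrast.

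The size of the losses was close to that over all regions. The median difference of lost member regions was -0.95 in untrained muscle at 0 h (all lost regions -0.90), -0.91 in trained muscle (all -0.91), -0.87 in untrained muscle at 6 h (all -0.88), -0.83 in trained muscle at 6 h (all -0.83) and -0.87 at 72 h (all -0.84). Gains differed more. Their median over members was 0.93 and 1.06 at 0 h in untrained and trained muscle (all gained regions 0.99 and 1.01), and 1.62 and 0.70 at 6 h (all 1.18 and 1.05), from 7 and 4 regions. Gained regions made up 25% of the member regions listed in untrained muscle at 6 h, against 49.5% of all regions listed there. In the other contrasts the share was 9.76% against 15.5% in untrained and 17.6% against 13.1% in trained muscle at 0 h, and 13.8% against 10.7% in trained muscle at 6 h.

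**Figure D1:**
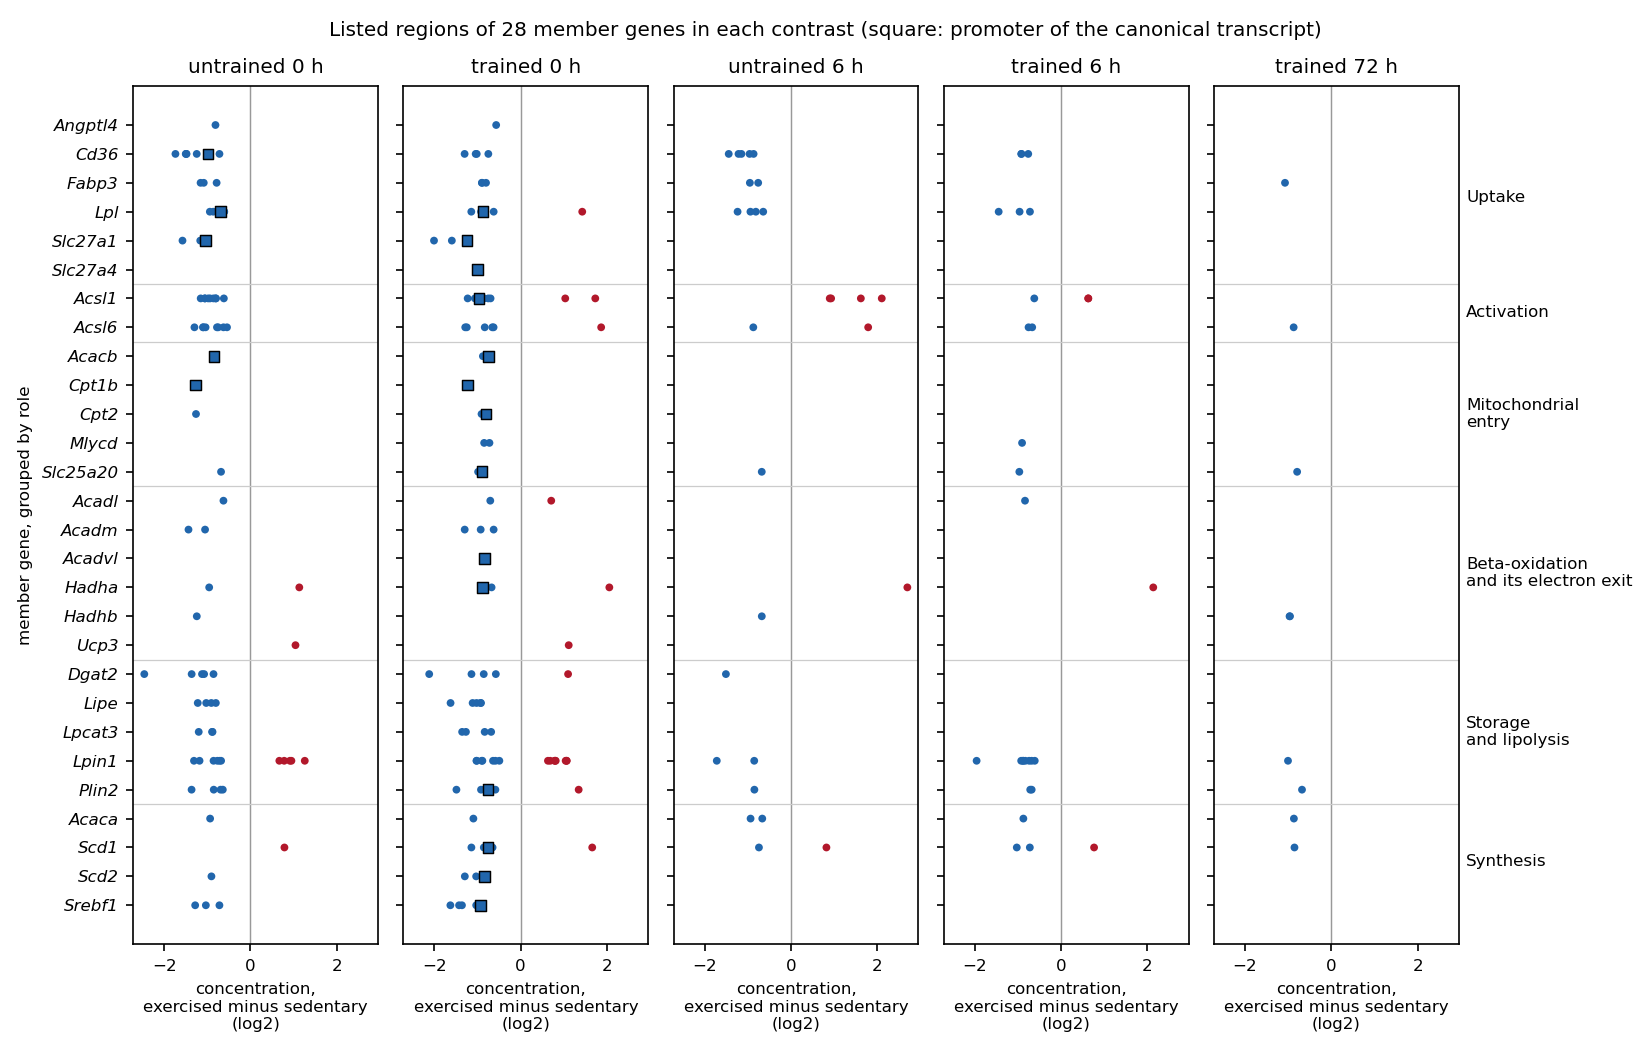
Each point is 1 listed region, placed by its difference in concentration (exercised minus sedentary, log2) on the x axis and by its gene, grouped by role, on the y axis, with 1 panel per contrast; blue is lost, red is gained, and squares are promoters of canonical transcripts. Losses spread over 23 and 26 genes at 0 h, canonical promoters are seen at 0 h alone, and the gained Hadha region lies farthest to the right at 6 h.

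Among the 24 regions of the uptake genes, 20 were lost in untrained muscle and 16 in trained muscle at 0 h, with losses from -0.57 to -2.01. The shares over all listed regions, 43.1% and 71.5%, are the background of such counts for each role. Cd36, the membrane fatty acid translocase, had 7 regions, all of which were lost in untrained muscle at 0 h (differences from -0.72 to -1.74), and 4 of which were lost in trained muscle. The Cd36 region at chr5:18090916-18091154, printed above, had a concentration of 7.62 in sedentary muscle, 5.88 in untrained and 6.57 in trained muscle at 0 h, and 6.75 in untrained muscle at 6 h. Its neighbor at chr5:18085813-18086166 went from 8.85 to 7.36 in untrained and to 8.11 in trained muscle at 0 h. In all 4 Cd36 regions that were lost in both states at 0 h the trained mean was the higher, by 0.18 to 0.75. The region over the canonical Cd36 start, 316 bp wide, was listed in untrained muscle at 0 h alone, with 8.49 in sedentary and 7.50 in untrained muscle. At 6 h, 5 of the Cd36 regions were lost in untrained and 3 in trained muscle, of which 2 had also been lost in trained muscle at 0 h. The deepest Cd36 loss in untrained muscle at 6 h was at chr5:17977755-17978087, from 8.07 to 6.63, with 7.16 in trained muscle.

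Slc27a1, a fatty acid transport protein with acyl-CoA synthetase activity, showed the opposite order. Its 3 regions were lost in both states at 0 h, and in each the trained mean was the lower (trained minus untrained -0.20 to -0.43). The region over coding exons 3 and 4, chr8:72031738-72032728, went from 11.07 to 9.50 in untrained and to 9.06 in trained muscle, a 4.02-fold loss in the latter. The promoter, 3514 bp wide, went from 12.98 to 11.94 and 11.74, and a start site of Nxnl1 lies within 1 kb of it. Naming by 1 start site per gene gave all 3 Slc27a1 regions to Nxnl1. The promoter of its relative Slc27a4 was listed in trained muscle alone, at 11.39 in sedentary and 10.39 in trained muscle at 0 h.

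Lpl, the lipase that frees fatty acids from lipoproteins, had 9 regions and changed in both directions. Its promoter fell from 11.69 to 10.99 in untrained and to 10.82 in trained muscle at 0 h. A region in its last intron, chr8:69355311-69356199, was not listed at 0 h and fell from 11.16 to 10.22 and 10.20 in untrained and trained muscle at 6 h. Close by, the region chr8:69356644-69356906 rose from 6.54 to 7.96 in trained muscle at 0 h and was listed in no other contrast. The deepest Lpl loss was at chr8:69364368-69364801, from 8.76 to 7.32 in trained muscle at 6 h, and this region was also lost at 0 h in both states and at 6 h in untrained muscle, where the difference was -0.81.

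Fabp3, the heart and muscle fatty acid binding protein, lost 3 regions in both states at 0 h. The region in its intron 1, chr4:130203898-130204835, had 8.55 in sedentary muscle, 7.40 and 7.66 in untrained and trained muscle at 0 h, 7.79 in untrained muscle at 6 h and 7.48 in trained muscle at 72 h. The last of these was the largest loss of any member region at 72 h (-1.07). Angptl4, an inhibitor of lipoprotein lipase, had 1 region 12203 bp upstream, with a difference of -0.81 in untrained and -0.57 in trained muscle at 0 h.

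The activation genes Acsl1 and Acsl6, acyl-CoA synthetases, held 24 regions, of which 17 were lost in untrained and 13 in trained muscle at 0 h. Gains at these genes were 0 and 3 at 0 h, and 5 and 2 at 6 h. The promoter of Acsl1 had the highest concentration of any member region in sedentary muscle, 13.23, or 4035 reads per kb of region, and fell to 12.27 in trained muscle at 0 h. A group of 3 regions from 38752 to 49068 bp upstream of Acsl1 rose. The farthest, chr8:46874514-46874999, rose from 8.78 to 9.68 and 9.41 at 6 h in untrained and trained muscle. The region of 370 bp printed above rose from 6.44 to 8.17 in trained muscle at 0 h and to 8.55 in untrained muscle at 6 h, a 4.30-fold gain. Its neighbor at chr8:46884989-46885315 rose from 7.46 to 8.49 in trained muscle at 0 h, to 9.08 in untrained muscle at 6 h and to 8.08 in trained muscle at 6 h. Both were thus listed in trained muscle at 0 h and not in untrained muscle until 6 h. In intron 1 of Acsl1 the region chr8:46931611-46932160 went both ways in untrained muscle, from 7.96 to 6.98 at 0 h and to 8.89 at 6 h.

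At Acsl6, 8 of 10 regions were lost in untrained and 5 in trained muscle at 0 h. The region 1869 bp upstream of the canonical start was lost in 4 contrasts, from 10.54 to 9.24 and 9.25 at 0 h and to 9.67 and 9.78 at 6 h in untrained and trained muscle. A region in intron 9, chr11:54224154-54224543, rose from the lowest sedentary concentration of any member region, 6.14, to 8.01 in trained muscle at 0 h and to 7.93 in untrained muscle at 6 h. A region close before it was lost in trained muscle at 0 h and at 72 h, with differences of -0.63 and -0.87.

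The genes of mitochondrial entry had losses at 5 of 9 regions at 0 h without training and at all 9 with it, and gained 0 in any contrast. Of all listed regions, 43.1% and 71.5% were lost in these 2 groups. Cpt1b, the muscle carnitine palmitoyltransferase that commits acyl groups to import, had 1 region, which spans its start site and fell from 11.99 to 10.71 in untrained and to 10.77 in trained muscle. This was the deepest loss at a canonical promoter in untrained muscle (-1.28), while in trained muscle the Slc27a1 promoter fell by more (-1.24 against -1.22). The region also covers the 3′ ends of Chkb and Gm44502, and a start site of Chkb lies within 1 kb of it. The promoter of Acacb, the acetyl-CoA carboxylase at the mitochondrial surface, fell from 12.55 to 11.70 and 11.80. The promoters of Cpt2, the inner carnitine palmitoyltransferase, and Slc25a20, the carnitine-acylcarnitine carrier, were listed in trained muscle alone and fell from 11.74 to 10.94 and from 10.91 to 10.01. Mlycd, malonyl-CoA decarboxylase, lost 2 upstream regions of 218 and 219 bp in trained muscle at 0 h, with differences of -0.72 and -0.85, of which the farther was also lost at 6 h.

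The region in intron 3 of Slc25a20 was the 1 member region listed in all 5 contrasts, as were 484 of all listed regions (1.17%). Its concentration was 7.85 in sedentary muscle, 7.17 in untrained and 6.86 in trained muscle at 0 h, 7.17 and 6.88 at 6 h, and 7.06 in trained muscle at 72 h. The 5 losses were all set against the same sedentary samples, so they are not independent of each other. At both shared times the trained mean was the lower.

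The genes of beta-oxidation and its electron exit had few regions and held the largest gain. The alpha subunit of the mitochondrial trifunctional protein, Hadha, has a region over the end of intron 12 and the start of coding exon 13, chr5:30331703-30332213, which is 27968 bp from the canonical start and covers the start of another annotated transcript. Its concentration was 6.73 in sedentary muscle, 7.86 in untrained and 8.78 in trained muscle at 0 h, and 9.43 in untrained and 8.87 in trained muscle at 6 h. The gain in untrained muscle thus went from 2.19-fold at 0 h to 6.49-fold at 6 h, and that in trained muscle from 4.15-fold to 4.39-fold. Close by, a region in intron 13 was lost at 0 h, from 8.17 to 7.21 and 7.49. The promoter that Hadha shares with Hadhb, the beta subunit, fell from 11.29 to 10.40 in trained muscle at 0 h. Naming by 1 start site per gene gave 2 of the 3 Hadha regions to Garem2 and the 2 Hadhb regions to Hadha. In introns of Hadhb, 2 regions were lost at 72 h in trained muscle, from 8.84 to 7.89 and from 8.93 to 7.96, and the latter was listed at no earlier time.

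The acyl-CoA dehydrogenases start each round of beta-oxidation. Acadm, the medium-chain enzyme, lost 2 regions over coding exons at 0 h in both states, the deeper from 8.31 to 6.88 in untrained and to 7.01 in trained muscle. Acadvl, the very-long-chain enzyme, was listed through its promoter alone, which fell from 11.06 to 10.23 in trained muscle at 0 h. A start site of Dlg4 lies within 1 kb of this promoter. The region in intron 1 of Acadl, the long-chain enzyme, went from 7.34 up to 8.05 in trained muscle at 0 h and down to 6.51 at 6 h. Ucp3, a mitochondrial carrier of muscle that rises when fatty acid supply is high, had 1 region, over coding exons 5 and 6, which rose from 8.59 to 9.64 in untrained and to 9.71 in trained muscle at 0 h.

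Storage genes held 42 of the 128 regions. Dgat2, which adds the last acyl group of triglyceride, had 5 losses at 0 h without training and 4 with it. The region 4721 bp upstream, printed above, had 7.77 in sedentary muscle, 5.31 in untrained and 5.65 in trained muscle at 0 h and 6.26 in untrained muscle at 6 h. The first of these was a 5.50-fold loss, the deepest of any member region. In all 4 Dgat2 regions lost in both states, the trained mean was the higher, by 0.22 to 0.50. The intron 4 region with the DR1 went from 10.16 to 8.80 and 9.03, and a region over coding exon 5 rose from 7.48 to 8.58 in trained muscle. The region nearest to any Dgat2 start site, in intron 2, fell from 11.36 to 10.50 in untrained muscle and was not listed in trained muscle.

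Plin2, a coat protein of lipid droplets, lost its promoter in trained muscle at 0 h, from 10.80 to 10.04, while a region 2097 bp upstream rose from 7.55 to 8.90 in the same contrast. The region 24832 bp upstream of Plin2 was lost in 4 contrasts, from 9.01 to 7.64 and 7.52 at 0 h and to 8.16 and 8.29 at 6 h, and that 26706 bp upstream differed by -0.59 to -0.68 in 4 contrasts including trained muscle at 72 h. Lipe, the hormone-sensitive lipase, had 4 losses at 0 h without training and 5 with it, the deepest from 11.99 to 10.77 and 10.37 in intron 1. Lpcat3, a lysophospholipid acyltransferase, lost 3 and 4 regions at 0 h, of which the deepest went from 9.27 to 8.07 and 7.91. Neither Lipe nor Lpcat3 was listed after 0 h.

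Lpin1, which makes diacylglycerol from phosphatidate and also serves as a nuclear coactivator, had 21 regions, the most of any member. Of these, 9 were gained and 12 lost, and the gains came at 0 h alone. Of the gained regions, 8 lie over the annotated gene or its 3′ edge, within 53972 bp of the canonical start, and 4 of them are over 2 kb wide, up to 7336 bp, against at most 898 bp among the lost regions. The other gained region, of 253 bp, lies 368288 bp downstream among the lost ones and rose from 6.70 to 7.52 in trained muscle. The region of 7336 bp over exons 2 and 3 rose from 10.89 to 11.56 in untrained and to 11.58 in trained muscle, and that of 5269 bp upstream rose from 11.78 to 12.73 in untrained muscle. Around an upstream start site, chr12:16659955-16661590, the concentration rose from 7.94 to 9.20 and 9.01. At the 3′ end, 3 regions rose by 0.79 to 1.06 in trained muscle and were not listed in untrained muscle.

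The lost Lpin1 regions lie at least 73256 bp from its canonical start. The one at chr12:16562920-16563444, printed above, went from 9.38 to 8.20 and 8.35 at 0 h and to 7.66 and 7.42 at 6 h in untrained and trained muscle, so the loss was deeper at 6 h than at 0 h in both states. At 72 h a region 357285 bp downstream was lost in trained muscle, from 8.32 to 7.32, and it was listed at no other time. Lpin1 gave 5 of the 8 gained member regions in untrained and 8 of the 18 in trained muscle at 0 h, and 3 and 10 remained without it. The name rests on the many Lpin1 start sites: with 1 start site per gene, 20 of the 21 regions went to Ntsr2 or Trib2, including regions inside Lpin1 itself. Over all members, 40 of the 128 regions changed gene under this naming, among them 3 of 4 at Lpcat3 and 2 of 2 at Acaca.

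**Figure D2:**
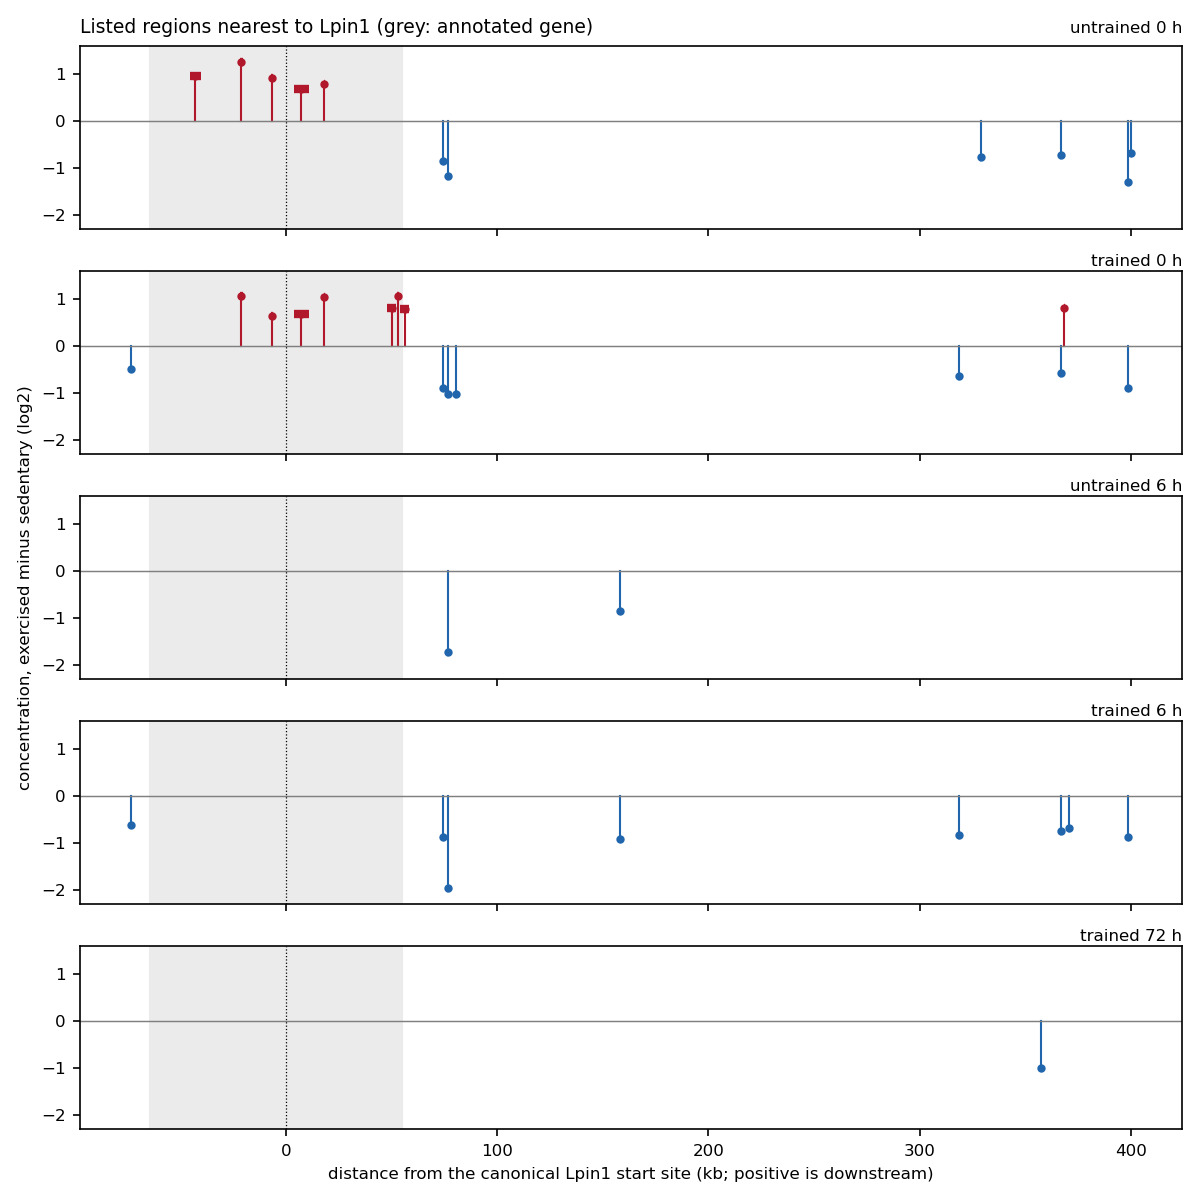
The listed regions nearest to Lpin1 are drawn by their distance from its canonical start site in kb (x axis) and their difference in concentration (exercised minus sedentary, log2, y axis) in 1 panel per contrast; the thick bar spans the width of the region and the grey band is the annotated gene. Of the 9 gains (red), all at 0 h, 8 sit over and beside the gene and 1 lies 368288 bp from the start site, and the losses (blue) lie at least 73256 bp from the start site.

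At the synthesis genes, 5 of 17 regions were lost at 0 h without training and 14 with it. Over all listed regions the shares were 43.1% and 71.5%, so a rise with training was general. In all 5 regions lost in both states the trained mean was the lower (trained minus untrained -0.16 to -0.71). Srebf1, the transcription factor that drives fatty acid synthesis genes, lost 3 of its 6 regions in untrained muscle and all 6 in trained muscle. The region 1797 bp upstream of its canonical start, chr11:60113265-60114256, went from 11.09 to 9.81 in untrained and to 9.46 in trained muscle, and that at chr11:60106486-60107012 from 8.61 to 7.89 and 7.18. The promoter of the canonical transcript fell from 11.16 to 10.23 and was listed in trained muscle alone. A Srebf1 region lies in the last exon of its neighbor Rai1.

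Scd1 and Scd2 are stearoyl-CoA desaturases, which make monounsaturated fatty acids. Scd1 lost 4 regions in trained and 0 in untrained muscle at 0 h, its promoter going from 9.92 to 9.16, and Scd2 lost 1 and 3, its promoter going from 11.48 to 10.65 in trained muscle. Beyond the 3′ end of Scd1, the region chr19:44382367-44382725 rose in 4 contrasts, from 6.19 to 6.97 and 7.84 at 0 h and to 7.01 and 6.95 at 6 h in untrained and trained muscle. Another Scd1 region, 10184 bp upstream, was lost at 6 h in both states and at 72 h in trained muscle, where the difference was -0.85. The Scd1 region 8216 bp upstream was lost in trained muscle alone, with differences of -1.14 at 0 h and -1.03 at 6 h. Acaca, the cytosolic acetyl-CoA carboxylase, lost a region in intron 25 in 4 contrasts, with differences from -0.87 to -1.09, and one in intron 3 in untrained muscle at 6 h and trained muscle at 72 h, with -0.66 and -0.87.

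**Figure D3:**
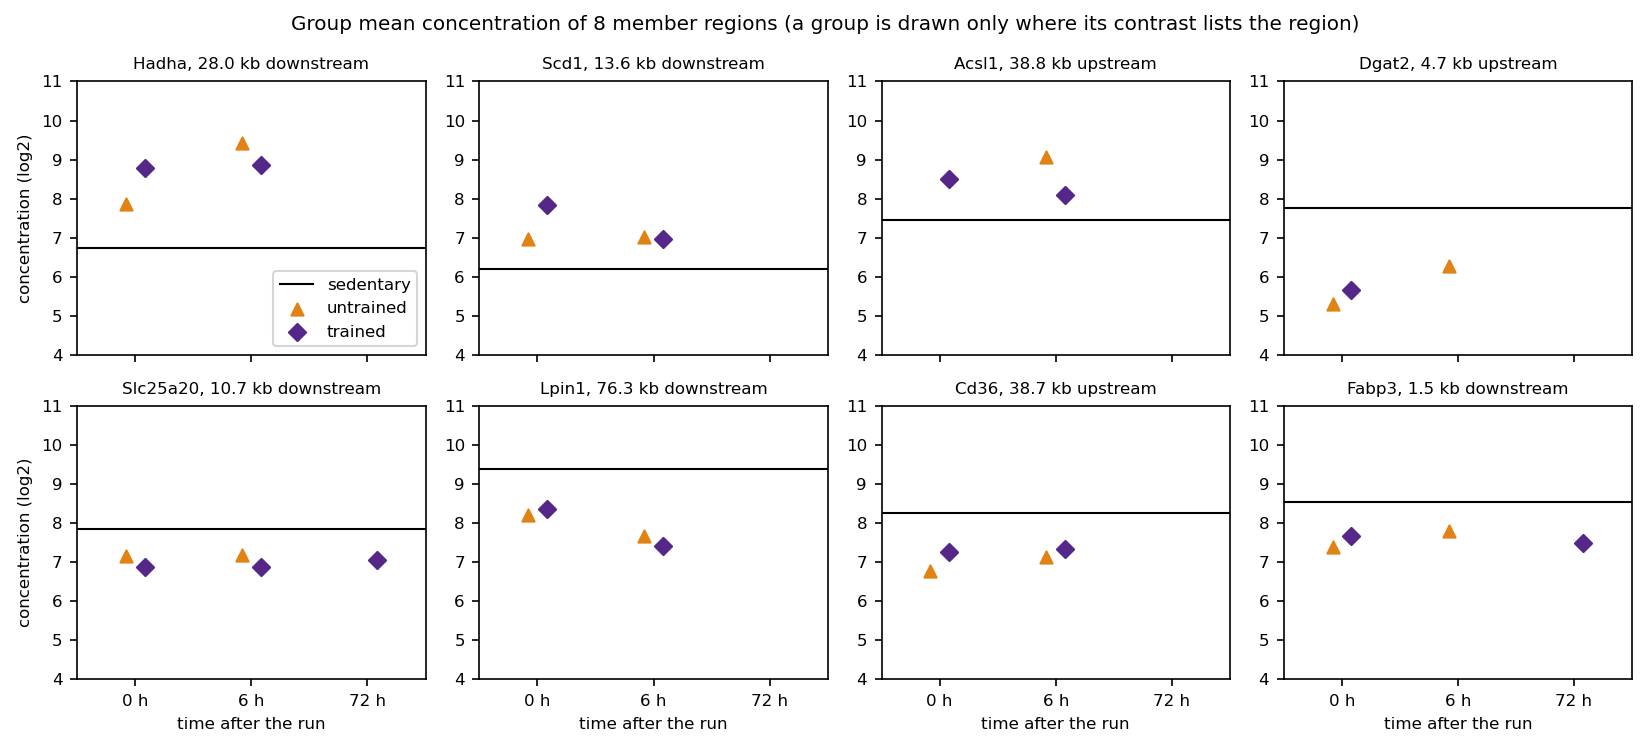
Concentration (log2 mean normalised read count, group mean) of 8 member regions by time after the run; the black line is the sedentary mean, triangles are untrained and diamonds trained groups, drawn where the contrast lists the region, and titles give the distance from the canonical start site. The Hadha, Scd1 and Acsl1 regions lie above the sedentary line and the other 5 below it, with the Slc25a20 and Fabp3 regions also below it at 72 h.

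Promoters were examined apart, as regions within 1 kb of a start site. At least 1 promoter region was lost at 14 of 34 members in untrained muscle at 0 h, where 9.28% of all protein-coding genes had one, and at 19 in trained muscle, where 29.2% did. Promoters of canonical transcripts were listed for 15 members, and all 15 were lost at 0 h and listed at no later time. Over all genes, 97.2% of 5560 such regions were lost at 0 h, so the loss at all 15 is close to the background, and 7.09% were listed at 6 h. Acacb, Cpt1b, Lpl and Slc27a1 lost theirs in both states, Cd36 in untrained muscle alone, and Acsl1, Acadvl, Hadha, Cpt2, Slc25a20, Plin2, Scd1, Scd2, Srebf1 and Slc27a4 in trained muscle alone. The part listed in trained muscle alone was thus 66.7% of these promoters, against 79.8% over all genes. Over promoter regions of any transcript, members lost 13 in trained muscle alone, 5 in untrained muscle alone and 19 in both at 0 h. Here the part lost in trained muscle alone was 35.1%, against 69.1% over all genes. Among members with no listed canonical promoter, Acsl6, Lipe, Lpcat3 and Acadm lost a promoter region of another transcript in both states at 0 h. So did Acacb, Acsl1, Cd36, Plin2, Slc25a20, Slc27a1 and Srebf1, besides their canonical promoters. Per kb of region, the canonical promoters ranged from 720 reads for Scd1 to 4035 for Acsl1 in sedentary muscle, with Slc27a4 (2565), Cpt2 (2462) and Slc27a1 (2301) next below Acsl1. Without values per sample, neighbors in this order cannot be told apart or told to differ.

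**Figure D4:**
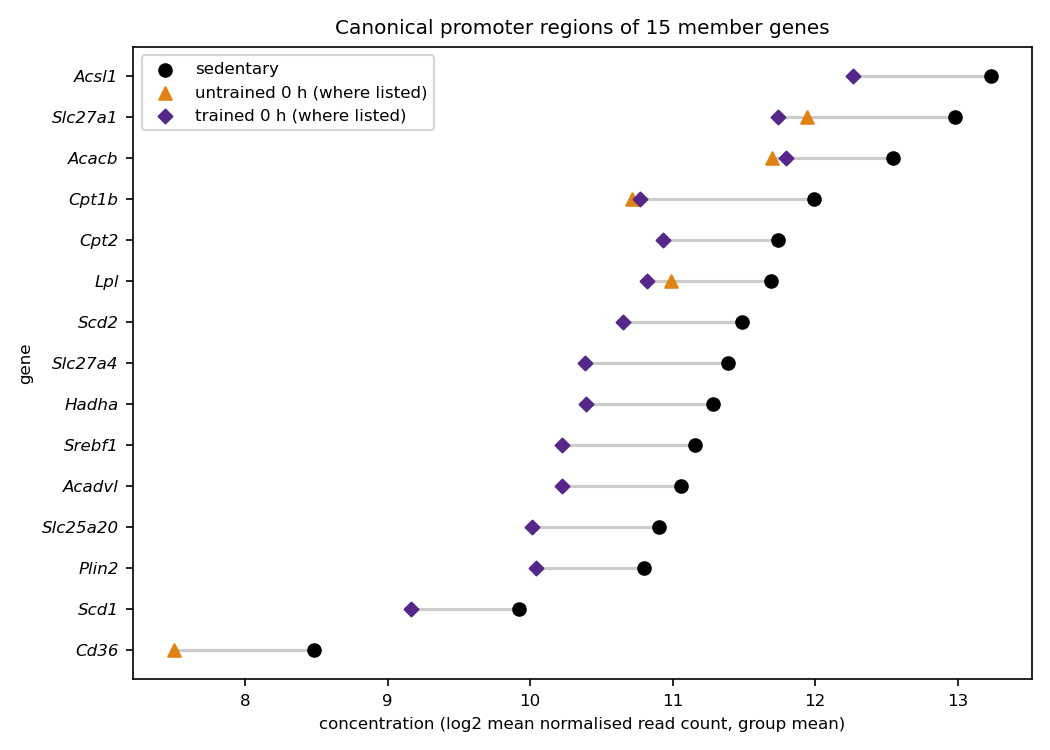
Concentration (log2 mean normalised read count, group mean) of the canonical promoter region of 15 members in sedentary muscle (circles), and in untrained (triangles) and trained muscle (diamonds) at 0 h where listed. Every exercised mean lies to the left of its sedentary mean, and 4 genes, Acacb, Cpt1b, Lpl and Slc27a1, carry both symbols.

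The states were set side by side at 0 h over regions listed in both. Of the lost member regions, 58 were lost in both states, which is 78.4% of those lost in untrained and 69% of those lost in trained muscle. Over all regions 15137 were, 84.7% and 51.1%. The trained mean was below the untrained mean in 29 of the 58, with a median difference between the states of 0.01, whereas over all regions it was below in 9911 of 15137, with a median of -0.11. The members lay on either side: the 4 regions of Cd36 and the 4 of Dgat2 were higher in trained muscle, and the 3 of Slc27a1 and the 3 of Srebf1 were lower. At 6 h, 13 member regions were lost in both states, with the lower mean in trained muscle in 6 and a median difference of 0.02. The 4 gained in both, at Acsl1, Hadha and Scd1, all had the lower mean in trained muscle (trained minus untrained -0.06 to -0.99). Over all regions 76 of 1191 gained in both were higher in trained muscle. The states were each compared with the sedentary group and not with each other, so no test stands behind these differences.

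**Figure D5:**
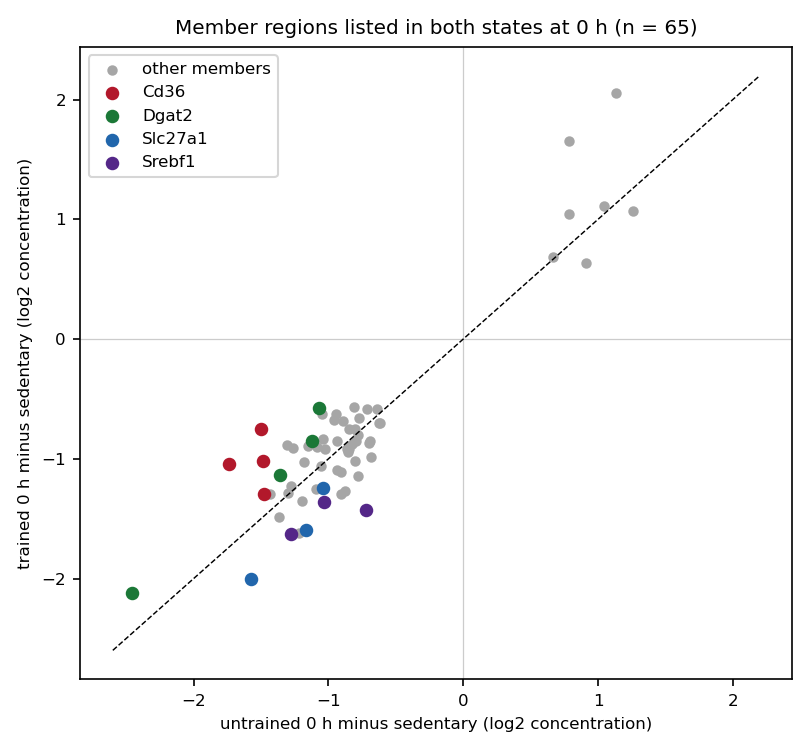
The 65 member regions listed in both states at 0 h are plotted by their difference from sedentary muscle (log2 concentration) in untrained (x axis) and trained muscle (y axis); the dashed line marks equal differences. Cd36 and Dgat2 regions lie above the line, which is a higher trained mean, and Slc27a1 and Srebf1 regions lie below it.

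Of the member regions, 45 were listed in 1 contrast, 58 in 2, 12 in 3, 12 in 4 and 1 in 5. All contrasts share the sedentary samples, so repeated listing of a region is not independent. The shares were 35.2%, 45.3%, 9.38%, 9.38% and 0.781%, against 44.4%, 32.4%, 14.8%, 7.2% and 1.17% of all listed regions. In trained muscle 18 regions lost at 0 h were also lost at 6 h, which is 21.4%, against 28% (8291) over all regions. At 72 h 4 were also lost, which is 4.76%, against 6.25% (1851) over all regions. These 4 were 44.4% of the 9 member regions lost at 72 h, against 71.3% over all regions. The 9 belonged to Fabp3, Lpin1, Hadhb, Acsl6, Acaca, Scd1, Slc25a20 and Plin2, with losses from -0.68 to -1.07. In untrained muscle, 16 regions were lost at both 0 and 6 h, which is 21.6% of those lost at 0 h, against 16.5% over all regions. The mean at 6 h was the lower in 2 of these 16, against 908 of 2943 over all regions.

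Gained member regions had lower sedentary concentrations than lost ones. The median was 7.55 over 21 regions gained in any contrast, with a range from 6.14 to 11.78, and 9.27 over 109 lost regions, with a range from 7.34 to 13.23, with 2 regions in both lists. The ranges overlap, and the same order was seen over all regions, with medians of 7.61 and 9.14. Without Lpin1 the gained members had a highest value of 8.78.

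Motifs were counted in the central 300 bases of each region, on both strands. The AP-1 letters TGANTCA were found in 4 of 21 gained member regions (19%), those of Hadha, Acsl1, Scd1 and Lpl printed above, against 42.6% of 7432 gained regions in all, and in 15 of 109 lost member regions (13.8%), against 7.1% of all lost regions. The DR1 was found in 3 of 128 member regions (2.34%), against 0.633% of all listed regions, and all 3 belong to Dgat2, which lost 2 of them and gained the other. The ERR element AAGGTCA was found in 8.59% of member regions and in 8% of all. The FOXO letters GTAAACA were found in 4.69% and 4.1%, and the MEF2 pattern in 4.69% and 6.75%. The MEF2 pattern allowed any 4 middle bases, so its matches need not be MEF2 sites. The sterol element TCACNCCAC was found in 1.56% and 1.23%, and the glucocorticoid element (GNACA and TGTNC with 3 bases between them) in 0.781% and 1.11%. Regions of 1 gene are not independent, and a match of letters shows no binding.

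Another 39 genes of fatty acid metabolism, such as further synthases, acyltransferases and dehydrogenases, were read in the same way. They held 114 regions at 35 genes. At 0 h, 24 had a loss in untrained and 32 in trained muscle, at 6 h 9 and 12, and at 72 h 6 in trained muscle. Gains were found at 1 and 4 genes at 0 h, at 6 and 5 at 6 h and at 0 at 72 h. The shares of all genes given above are the background of these counts too. A promoter region of Gpam, the mitochondrial enzyme that starts glycerolipid synthesis, was lost in all 5 contrasts. It holds the start of another transcript, 19903 bp upstream of the canonical start. Its concentration went from 10.96 to 9.76 and 9.55 at 0 h, 9.89 and 9.62 at 6 h, and 10.01 at 72 h. The promoter of the canonical Gpam transcript was listed in trained muscle at 0 h alone, from 11.46 to 10.24. In untrained muscle at 0 h the next largest promoter losses on this list were at Decr1, an enzyme for unsaturated acyl chains (10.27 to 9.22), and at Hadh, the dehydrogenase for short chains (11.52 to 10.50). In trained muscle at 0 h they were at G0s2, an inhibitor of triglyceride lipase (11.15 to 9.89), and at Hadh (11.52 to 10.37). Agpat3, an acyltransferase of phospholipid synthesis, gained promoter regions of transcripts other than the canonical one. The region 64964 bp downstream of the canonical start rose from 9.63 to 10.56 in trained muscle at 0 h and to 10.87 in untrained muscle at 6 h. That 6988 bp upstream of it rose from 8.38 to 9.42 and 9.34 at 6 h in untrained and trained muscle. A G0s2 promoter region 1049 bp upstream of the canonical start went both ways. It fell from 7.95 to 7.13 in untrained and 6.90 in trained muscle at 0 h, and rose to 8.79 in trained muscle at 6 h. At 72 h a region at the start of another than the canonical transcript of Cpt1a, the carnitine palmitoyltransferase of liver and most other tissues, was lost in trained muscle, from 10.45 to 9.44.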

How the data were processed

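Per the submitters' processing notes, the authors used Trimmomatic 0.39 for trimming, Bowtie2 2.4.4 and SAMtools 1.15 for alignment on GRCm39, Genrich 0.6.1 for peaks and DiffBind 3.4.11 to set exercised against sedentary samples. The deposited concentrations are log2 mean normalised read counts per region and group, so the depth per sample is unknown. The deposited tables also give a p-value and an FDR for each region, which served here to recover the number of tested regions (63953) and for an alternative at FDR under 0.01. The authors' fold column and gene names (ChIPseeker 1.30.3) were not used, since the gene positions there lie on another build. Separate tables of gains and losses held the same regions and were not used.

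Sample groups followed the GEO labels, which do not say whether samples came from separate animals. Differences of concentration were computed in Python 3.11.15 with pandas 2.3.3. Each region was named for the nearest start site of any protein-coding transcript (GENCODE M39), measured from the region's edge. Naming and motif search were tested on simulated data. The members and gene lists were chosen with earlier results of these data known. Values are given for each listed canonical promoter and for the 3 largest falls and 3 largest rises per contrast, 1 region per gene. Other regions are given in part, singly or by range. On the list of other genes, up to 3 genes per contrast and direction with the largest promoter difference are given. No test was run, since group means alone were used. The alternatives were naming by the midpoint or by 1 start site per gene, FDR under 0.01, regions within 50 kb, regions of 2 kb or less, 1 value per gene, and promoters that hold a start site.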

Additional observations from a re-analysis of the deposited data

How the results depend on the processing

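No paired analysis was possible because only means of groups were used, and leaving out replicates was not run for the same reason. Of 191 values under the alternatives, 158 kept within 1.5 times the reported count or within 0.1 of the reported median, and 33 moved further. Medians of lost or gained regions could not change sign, since the regions were split by sign beforehand. The median difference between the states over regions lost in both at 0 h went from 0.01 to -0.02 with the limit of 50 kb. Naming by the midpoint and a limit of 50 kb moved 0 values. FDR under 0.01 moved 25 of 41 values, and fewer regions are listed there by construction. Lost member regions were then 45 and 50 in untrained and trained muscle at 0 h, 8 and 5 at 6 h, and 1 at 72 h, with medians of -1.10, -1.04, -1.18 and -0.97 at 0 and 6 h. Member genes with a loss were 5 and 3 at 6 h and 1 at 72 h, and 9 members lost a promoter region in untrained muscle at 0 h. Gained member regions were 4 at 2 genes in untrained muscle at 0 h (median 1.04) and 1 at 1 gene in trained muscle at 6 h (median 2.14). Other genes of fatty acid metabolism with a loss were 19 in trained muscle at 0 h, 4 and 1 at 6 h and 1 at 72 h, and those with a gain were 2 in trained muscle at 0 h and 3 at 6 h. With 1 start site per gene, gained member regions were 3 at 2 genes in untrained and 10 in trained muscle at 0 h, with a median of 1.23 in the latter and of 1.07 in untrained muscle at 6 h. With 1 value per gene, the median gain in trained muscle at 0 h was 1.36. Without Lpin1, an alternative chosen after seeing the data, the gained regions at 0 h were 3 and 10. Without values per sample, no difference could be set against its replicate error.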
